A study of Mus musculus with 4 samples.

Results

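Iron is a cofactor of several enzymes that build cholesterol, and 7 genes of the middle part of that pathway were followed in induced regulatory T (iTreg) cells given iron. The genes were Fdft1, Sqle, Lss, Cyp51, Sc4mol, Nsdhl and Hsd17b7. They were chosen by name, as the steps from squalene to lanosterol and the removal of the methyl groups at carbon 4 of the sterol. The choice was made with earlier results of these data known. They are 7 of 47729 gene rows in the table. Each was found by its mouse Ensembl ID. Sc4mol is the older symbol of Msmo1.

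The cells were naive CD4 T cells of C57BL/6 mice (spleen by the labels, spleen and lymph nodes by the study's methods). They were stimulated through CD3 and CD28 and driven toward iTreg cells with TGF-β, IL-2 and antibodies to IL-4 and to IFN-γ. The FeSO4 group received ferrous sulfate at 50 µM for 4 days and the Mock group received PBS for 4 days, with no other difference given in the labels and no genetic change in either group. Each group had 2 libraries of bulk RNA, numbered 1 and 2, and the methods of the study describe pairs of samples from independent experiments. The culture was not sorted before RNA was taken, as far as the sources used here state, so a larger number of cells with a transcript and more transcript per cell cannot be told apart.

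Gene rows held 35183187 to 40859178 reads per library, and 13732 genes passed the filter on low counts, all 7 sterol genes among them. Defining T cell markers were present in every library, with Cd4 at 606 to 683, Cd3e at 304 to 346 and Foxp3 at 376 to 693 CPM (counts scaled to a common library size after TMM normalization). The 4 B cell markers summed to 2.38 to 3.38 CPM with at most 1 count of Ms4a1, both NK cell markers had 0 counts, and the 2 CD8 T cell markers summed to 9.04 to 11 CPM. The 5 myeloid markers summed to 4.56 CPM in Mock replicate 1 and to 0.379 to 0.861 CPM in the other 3 libraries. Of the 2 red cell markers, Hba-a1 was at 24.5 and 19.6 CPM in Mock and at 37.5 and 32.5 CPM in FeSO4 (log2 fold change 0.67, edgeR adjusted p = 0.000999), and Alas2 had 4 to 16 counts. Foxp3 itself, the factor that defines Treg cells, was at 587 and 693 CPM in Mock but at 376 and 472 CPM in FeSO4 (log2 fold change -0.60 ± 0.09, SE, edgeR adjusted p = 0.000469). Of the other 4 genes of that marker list, Cd3g was higher, at 368 and 349 CPM in Mock but at 505 and 512 CPM in FeSO4 (log2 fold change 0.50, adjusted p = 4.34e-05), and Cd3e, Cd4 and Il2ra did not pass. The part of these cells and of these marker changes in the results below was not tested.

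Cholesterol is made from acetyl-CoA through mevalonate and farnesyl diphosphate. Squalene synthase (Fdft1) joins a pair of farnesyl diphosphates and commits them to sterols. Squalene epoxidase (Sqle) then adds oxygen, and lanosterol synthase (Lss) folds the chain into the first sterol. Cyp51, a heme-containing cytochrome P450, and Sc4mol, a methyl oxidase with non-heme iron, remove methyl groups from it with molecular oxygen, and the dehydrogenase Nsdhl and the ketoreductase Hsd17b7 complete the removal at carbon 4. Transcription of these genes is known to be driven by the SREBP-2 factor together with NF-Y when sterols in the endoplasmic reticulum run low, and activated T cells raise the pathway as they grow.

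The genes lie on 7 different chromosomes. In RefSeq coordinates of the GRCm38 build, Fdft1 (ENSMUSG00000021273) is at chr14:63145150-63181687, Sqle (ENSMUSG00000022351) at chr15:59315092-59331193, Lss (ENSMUSG00000033105) at chr10:76531565-76557139 and Cyp51 (ENSMUSG00000001467) at chr5:4080674-4104697. Sc4mol (ENSMUSG00000031604) is at chr8:64718123-64733578, Nsdhl (ENSMUSG00000031349) at chrX:72918521-72958528 and Hsd17b7 (ENSMUSG00000026675) at chr1:169949535-169969242. In the annotation with Ensembl IDs that was used here, GENCODE M1, the exons of 2 of them meet those of a gene on the other strand. Fdft1 meets Ctsb, which encodes cathepsin B and was at 241 and 239 CPM in Mock and at 251 CPM in both FeSO4 libraries. Lss meets 4930483K19Rik, which had at most 6 counts in any library.

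Promoter windows from RefSeq (GRCm38.p6, 250 bases before to 50 bases after the transcript start) were at hand for 5 of the 7, and not for Fdft1 and Sqle. They are shown because the genes moved together and the known regulators of the pathway bind near the start. No binding was measured, and the part of these sites in the changes below was not tested. The 250 bases before the start are given 5′ to 3′ on the strand of the gene for the enzymes that hold heme (Cyp51, minus strand, chr5:4104698-4104947) and iron (Sc4mol, minus strand, chr8:64733579-64733828), with each CCAAT in capitals.
Cyp51: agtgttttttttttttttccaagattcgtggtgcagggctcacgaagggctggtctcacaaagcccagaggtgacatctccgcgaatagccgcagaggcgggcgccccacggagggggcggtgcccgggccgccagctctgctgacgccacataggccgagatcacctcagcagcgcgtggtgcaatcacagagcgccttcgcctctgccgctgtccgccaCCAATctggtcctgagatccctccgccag
Sc4mol: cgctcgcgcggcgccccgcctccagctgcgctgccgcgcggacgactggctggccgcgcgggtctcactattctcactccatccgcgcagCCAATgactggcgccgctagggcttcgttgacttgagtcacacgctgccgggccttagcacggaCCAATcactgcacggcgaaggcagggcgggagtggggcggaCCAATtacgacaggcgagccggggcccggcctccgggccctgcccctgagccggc

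The letters CCAAT, the box that NF-Y binds, were found on either strand in all 5 windows, against 37.4% of the 32851 promoter windows in the table. This share and those below cover every window, whether or not its gene was expressed. They were not matched to the GC content of the 5 windows (59.3% in Nsdhl to 71% in Lss). Lss and Cyp51 held 1 each, Sc4mol and Hsd17b7 held 3 each and Nsdhl held 4. Across the table, 3.37% of windows held 3 or more. The box was also in 6 of 8 windows of 7 mevalonate genes (Hmgcs1 included, Fdps without a window) and in 5 of 7 windows of 5 late-step genes, where some genes have more than 1 start. Among them were Ggps1 with 3 boxes and Ebp with 2, whose transcripts did not pass the test between groups. Ebp did pass when the replicate number was added as a block. The box nearest to the start lay 29 bases before it in Cyp51, 55 in Sc4mol, 62 in Lss and 12 in Hsd17b7, counted to the first base of the box, while in Nsdhl the boxes fell on both sides of the start. For the other 3 genes the box nearest upstream of the start is shown with 10 bases on each side, on the strand of the gene and with the box in capitals (ATTGG is CCAAT on the opposite strand), since these sites carry the feature that the 5 windows share. The stretches are chr10:76531533-76531557 for Lss (plus strand), chrX:72918491-72918515 for Nsdhl (plus strand) and chr1:169969203-169969227 for Hsd17b7 (minus strand).
Lss: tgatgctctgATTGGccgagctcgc
Nsdhl: gactagcctcATTGGgcaaaatcat
Hsd17b7: ccgagccttgATTGGtcgaggtgcg

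All 5 windows also held GGGCGG (GC box, either strand), which 35.7% of windows hold, and 12.8% of windows hold it beside CCAAT. The strict core of the sterol regulatory element, TCACNCCAC with N for any base, was in 0 of the 5 windows on either strand and in 1.24% of all windows. This says only that those letters are not in these 5 windows. Among the mevalonate and late-step genes, Hmgcs1 held the core, as TCACCCCAC with its first base 137 bases before the start. Of the 2 letter strings searched for the HIF core, GCGTG was in all 5 (32.4% of windows) and ACGTG was in Hsd17b7 (19.6% of windows), where it overlapped an E-box, CACGTG (7.15% of windows).

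FeSO4 was compared with Mock to find the transcripts that respond to iron. All 7 sterol genes were higher in FeSO4. The fold changes ran from 1.88 for Fdft1 to 2.28 for Cyp51, and both FeSO4 libraries lay above both Mock libraries for all 7. By edgeR's quasi-likelihood test with Benjamini-Hochberg adjustment over all genes, 7 of 7 were called higher at an adjusted p under 0.05, where 10.6% of all tested genes were called higher and 8.89% lower (19.5% in either direction). With library size only in place of TMM, higher genes made up 34.9% of all calls instead of 54.4%, and the 7 sterol genes were still called higher. Both FeSO4 libraries lay above both Mock libraries in 30.1% of tested genes. The median log2 fold change was 1.03 over the 7 genes and -0.00 over all tested genes. The 7 genes were chosen with earlier results of these data known. The study had already reported cholesterol biosynthesis among the processes enriched in its iron-regulated genes. These contrasts with all tested genes are therefore descriptions and no independent test.

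**Figure D1:**
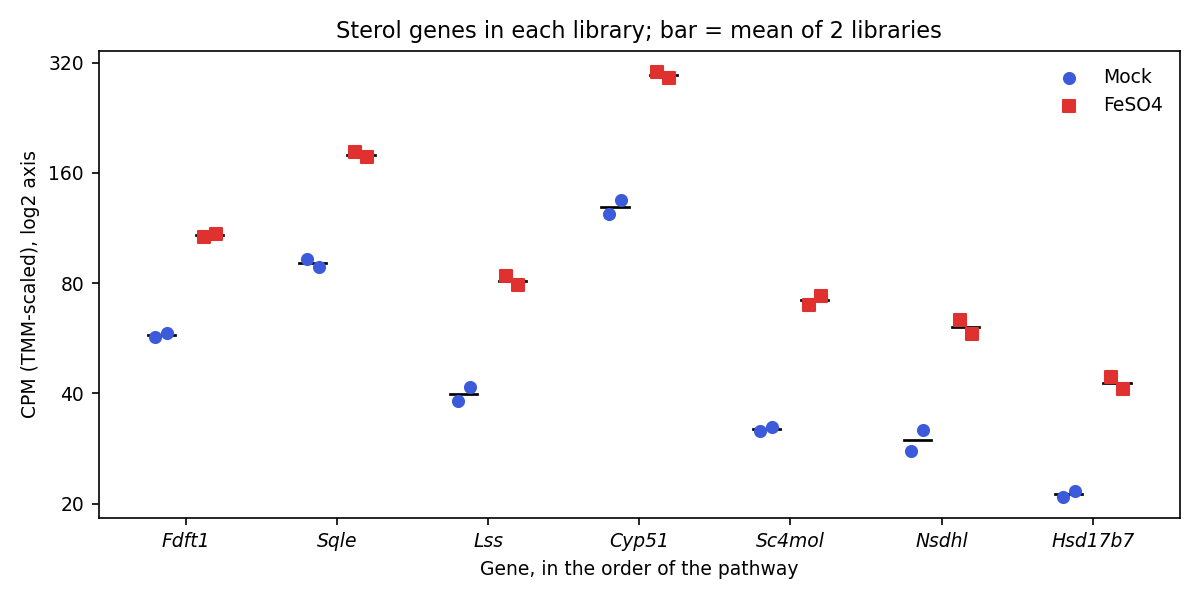
CPM (log2 axis) of the 7 sterol genes in each library, Mock as blue circles and FeSO4 as red squares, with a black bar at the mean of 2 libraries. For every gene the red squares sit above the blue circles, from 41.1 and 44.3 against 20.9 and 21.7 CPM for Hsd17b7 to 290 and 302 against 124 and 135 CPM for Cyp51.

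Fdft1, the squalene synthase, was at 57.2 and 58.3 CPM in Mock and at 107 and 109 CPM in FeSO4. The libraries within a group were close together and the groups did not overlap. The mean was 57.7 ± 0.775 in Mock and 108 ± 1.43 in FeSO4 (SD, n = 2 each), which gave a log2 fold change of 0.91 ± 0.07 (SE, edgeR adjusted p = 8.85e-07). This was the smallest change of the 7. Ctsb, whose exons meet those of Fdft1, did not pass the test (log2 fold change 0.06 ± 0.06, SE, adjusted p = 0.51).

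Sqle, the first oxygen-using enzyme of the pathway and one of its slow steps, was at 93.4 and 88.5 CPM in Mock and at 182 and 177 CPM in FeSO4. Both libraries with iron held nearly double the level of either library without it. The log2 fold change was 0.98 ± 0.07 (SE, edgeR adjusted p = 2.05e-07). Sqle takes its electrons from Por through FAD and holds no iron.

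Lss, which makes lanosterol, was at 38.1 and 41.6 CPM in Mock and at 83.5 and 78.9 CPM in FeSO4, again without overlap. The mean was 39.9 ± 2.44 in Mock and 81.2 ± 3.27 in FeSO4 (SD, n = 2 each), which gave a log2 fold change of 1.03 ± 0.08 (SE, edgeR adjusted p = 9.91e-07).

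Cyp51, the heme enzyme that removes the first methyl group of lanosterol, was at 124 and 135 CPM in Mock and at 302 and 290 CPM in FeSO4. It had the largest change of the 7 and the smallest p. The mean was 130 ± 7.29 in Mock and 296 ± 8.49 in FeSO4 (SD, n = 2 each), which gave a log2 fold change of 1.19 ± 0.07 (SE, edgeR adjusted p = 1.58e-08). By p, Cyp51 ranked number 9 of the 13732 tested genes and the other 6 sterol genes lay at ranks up to 55.

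Sc4mol, the iron-dependent oxidase that starts the removal of the methyl groups at carbon 4, was at 31.6 and 32.4 CPM in Mock and at 69.7 and 73.9 CPM in FeSO4. The spread within each group was small beside the gap between groups. The mean was 32 ± 0.586 in Mock and 71.8 ± 2.98 in FeSO4 (SD, n = 2 each), which gave a log2 fold change of 1.17 ± 0.08 (SE, edgeR adjusted p = 2.51e-07).

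Nsdhl, which oxidizes and decarboxylates the product of Sc4mol, was at 27.8 and 31.8 CPM in Mock and at 63.5 and 58.1 CPM in FeSO4. Its libraries differed more within a group than those of the other 6, by 0.19 on the log2 scale in Mock, with replicate 2 the higher, and by 0.13 in FeSO4, with replicate 1 the higher. The log2 fold change was 1.03 ± 0.09 (SE, edgeR adjusted p = 3.01e-06).

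Hsd17b7, whose reductase activity completes the removal of a methyl group, was the least abundant by CPM. It was at 20.9 and 21.7 CPM in Mock and at 44.3 and 41.1 CPM in FeSO4, with no overlap. The log2 fold change was 1.01 ± 0.09 (SE, edgeR adjusted p = 3.53e-06). Its lowest count in any library was 847, which carries a counting error of 3.44%, so counting error was small beside the change for all 7 genes.

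Among the 8522 tested genes that averaged 10 CPM or more, 60 had a log2 fold change as large as that of Fdft1 or larger, the 7 sterol genes included, and 36 had one as large as that of Cyp51 or larger. Over all 13732 tested genes, those with few reads included, 440 had a larger increase than Fdft1 and 259 a larger one than Cyp51.

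**Figure D2:**
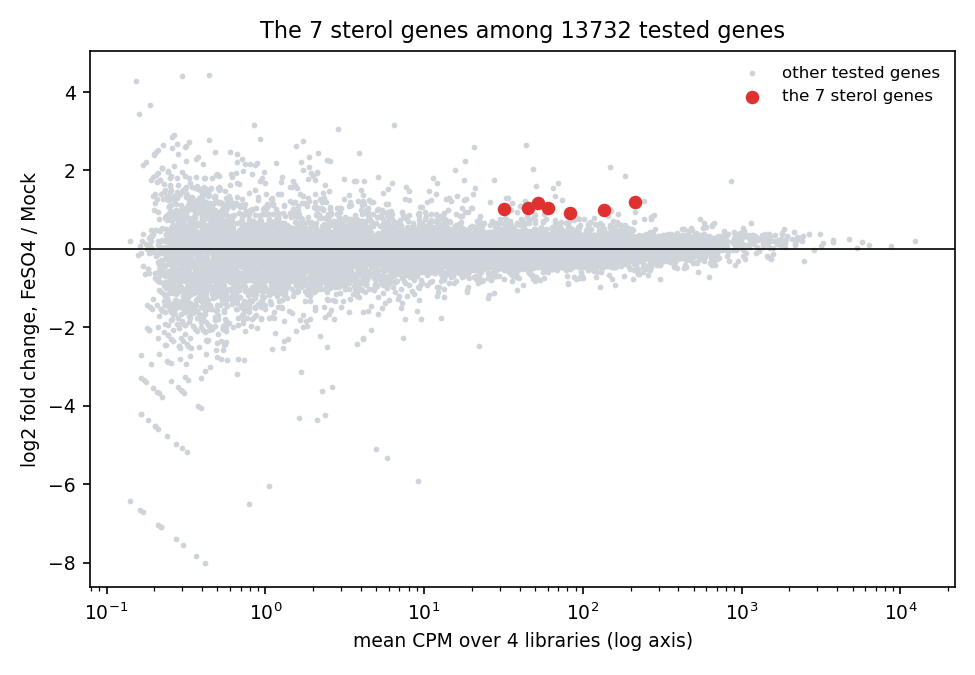
Each of the 13732 tested genes by its mean CPM over the 4 libraries (x axis, log scale) and its log2 fold change, FeSO4 over Mock (y axis), with the 7 sterol genes in red. The red points lie between 0.91 and 1.19 on the y axis, in a narrow band above most genes of like abundance.

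The log2 ratio of FeSO4 over Mock was also taken within each replicate number. For number 1 it ran from 0.91 (Fdft1) to 1.28 (Cyp51), with a median of 1.13. For number 2 it ran from 0.87 (Nsdhl) to 1.19 (Sc4mol), with a median of 0.92. Fdft1 was at 0.91 for both numbers, and Sqle was at 0.96 for number 1 and slightly above that for number 2. The ratio was larger for number 1 in Lss (1.13 and 0.92), Cyp51 (1.28 and 1.11), Nsdhl (1.19 and 0.87) and Hsd17b7 (1.08 and 0.92), whereas Sc4mol was at 1.14 and 1.19.

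The 2 enzymes that hold heme or iron, Cyp51 and Sc4mol, had the largest log2 fold changes of the 7 (1.19 and 1.17). Those of the other 5 ran from 0.91 to 1.03, with oxygen-using Sqle (0.98) inside that range. Outside the 7, Fdps (1.48) and Pmvk (1.20) of the mevalonate steps lay above both. Of the other tested iron or heme enzymes of lipid metabolism, Fads2 (2.66), Scd1 (1.86) and Scd2 (1.73) lay above both. Fads3 (1.13, not called), Fads1 (0.67), Sc5d (0.66) and Cyp39a1 (-0.65, not called) lay below both. Whether the change goes with the cofactor was not tested. The whole range over the 7 genes was 0.28, against standard errors of 0.07 to 0.09. For the genes at its ends, the log2 CPM of Cyp51 minus that of Fdft1 was 1.12 and 1.21 in the Mock libraries and 1.49 and 1.41 in the FeSO4 libraries. The groups did not overlap in this difference, but with 2 libraries against 2 an exact two-sided permutation test cannot give a p below 0.333. This pair was chosen for its difference, which is given as a description, and the order of the changes among the 7 was not tested. Within replicate number 1, the ratio of Nsdhl (1.19) lay above that of Sc4mol (1.14), whereas within number 2 those of Sc4mol and Cyp51 were highest.

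Levels can be compared between genes only per length. On the scale of CPM per kb of summed exon length, Cyp51 was highest in all 4 libraries, at 29 and 31.5 in Mock and 70.5 and 67.7 in FeSO4. Fdft1 followed at 20 and 20.4 in Mock and 37.5 and 38.3 in FeSO4, then Sqle at 16.8 and 16 and at 32.7 and 32. Nsdhl was at 9.74 and 11.1 in Mock and 22.3 and 20.4 in FeSO4. Sc4mol, Hsd17b7 and Lss came last, with 3.53 to 5.28 in Mock and 7.31 to 12 in FeSO4. The order was the same in all 4 libraries, and the closest neighbors, Hsd17b7 and Lss, were at 4.09 and 3.53 in Mock replicate 1 and at 4.24 and 3.86 in Mock replicate 2.

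That order rested on the lengths used. The summed exons of Lss (10787 bases), Sc4mol (6144) and Sqle (5546) are longer than their longest coding transcripts (4667, 2044 and 2758 bases). Per kb of the longest coding transcript, Sqle was level with Cyp51 in Mock (33.9 and 32.1 against 31.7 and 34.3) and below it in FeSO4 (65.8 and 64.3 against 76.8 and 73.8), Sc4mol was above Nsdhl, and Hsd17b7 was lowest at 4.53 to 9.6. On both lengths Cyp51 made up more of the summed level of the 7 genes in FeSO4 than in Mock. Its share by summed exon length was 32.9% and 34.1% in Mock and 36.9% and 36.4% in FeSO4, and that of Fdft1 was 22.6% and 22.1% in Mock and 19.7% and 20.6% in FeSO4. The shares of Sqle were 19.1% and 17.3% in Mock and 17.2% in both FeSO4 libraries. The share of Nsdhl lay between 11% and 12.1%, and those of Sc4mol, Hsd17b7 and Lss between 3.94% and 6.48%.

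**Figure D3:**
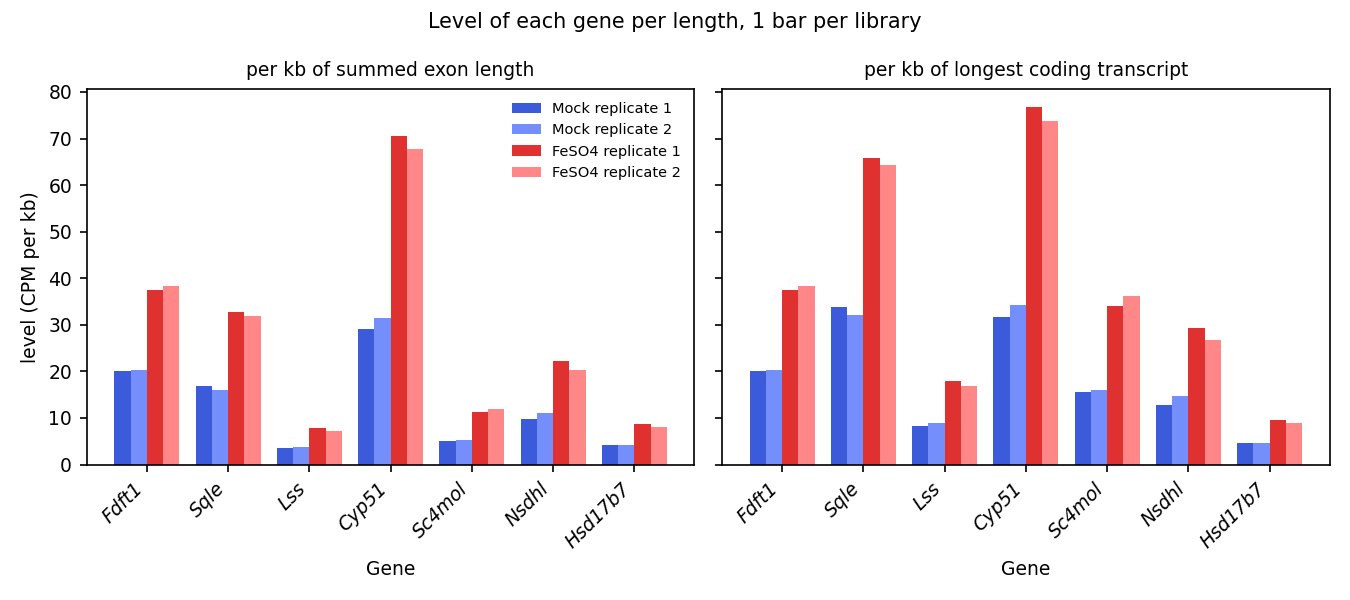
Level of the 7 genes in CPM per kb (y axis), with 1 bar per library, per kb of summed exon length (left) and of the longest coding transcript (right). Red FeSO4 bars are about double the blue Mock bars for every gene, and Sqle reaches the level of Cyp51 in Mock only on the right.

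The steps before squalene supply its precursors. Of 7 mevalonate pathway genes reported here, 6 were higher in FeSO4, 0 were lower and 1 did not pass, with a median log2 fold change of 0.88. Fdps, which makes the farnesyl diphosphate that Fdft1 uses, was at 3.99 and 4.47 CPM in Mock and at 12.6 and 11 CPM in FeSO4 (log2 fold change 1.48 ± 0.17, SE, edgeR adjusted p = 4.02e-05). Pmvk (1.20), Acat2 (0.95), Idi1 (0.88), Mvd (0.70) and Mvk (0.60) rose as well, given as log2 fold changes. Ggps1, which draws farnesyl diphosphate away from sterols into geranylgeranyl diphosphate, was at 21.1 and 23 CPM in Mock and at 22.5 and 23.8 CPM in FeSO4 (0.07 ± 0.10, adjusted p = 0.693). The expression of Hmgcs1 was not analysed here.

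Of 5 genes of the late steps reported here, 4 were higher in FeSO4 and 0 lower, with a median log2 fold change of 0.66. Sc5d, a desaturase with non-heme iron like Sc4mol, was at 62.4 and 61.1 CPM in Mock and at 92.6 and 102 CPM in FeSO4 (0.66 ± 0.08, SE, edgeR adjusted p = 3.69e-05). The reductases Tm7sf2 and Dhcr7 rose by 0.88 and 0.74 on the log2 scale. Lbr, which is also a protein of the inner nuclear membrane, rose by 0.21 (adjusted p = 0.0308), and the isomerase Ebp was at 0.20 ± 0.08 (adjusted p = 0.112). Ebp was called higher as well with the replicate number as a block, where 5 of 5 were called. With either FeSO4 library left out, 3 of the 5 were called. Whether the 7 genes moved more than the early or the late steps was not tested.

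**Figure D4:**
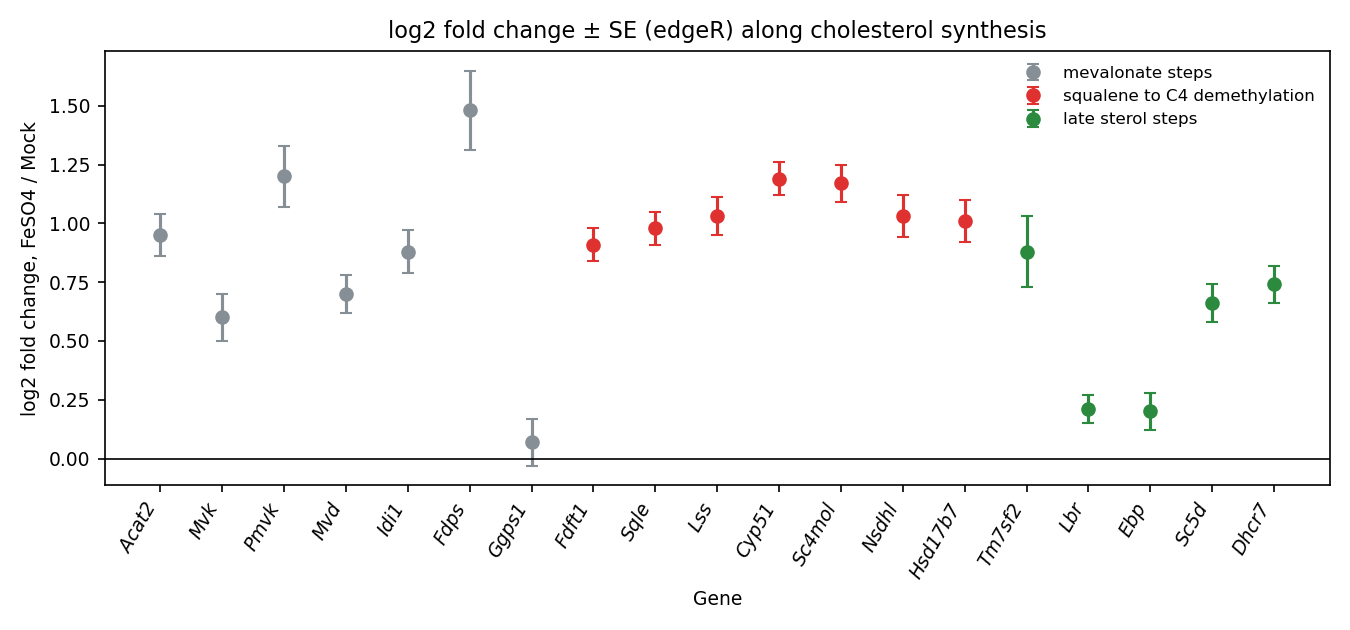
log2 fold change, FeSO4 over Mock, with its SE (y axis) for the reported genes of cholesterol synthesis in pathway order, mevalonate steps in gray, the 7 sterol genes in red and the late steps in green. The red points stay within 0.91 to 1.19, while the gray ones run from 0.07 to 1.48 and the green ones from 0.20 to 0.88.

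A further list held electron donors and partner proteins of the 7 enzymes, together with the heme-degrading Hmox1 and with March6, a ubiquitin ligase that acts on squalene epoxidase. The list also held Ubxn8, for which a link to the 7 enzymes was not established here. Of its 11 genes, 5 were higher, 0 were lower and 6 did not pass, with a median log2 fold change of 0.20. Erg28, which tethers the enzymes that act at carbon 4 into a complex, was at 43.9 and 41.6 CPM in Mock and at 70 and 70 CPM in FeSO4 (0.71 ± 0.08, SE, edgeR adjusted p = 2.39e-05). Cytochromes b5 carry electrons to Sc4mol, and Cyb5b (0.45, adjusted p = 0.000193) and Cyb5a (0.39, adjusted p = 0.00198) were higher. The heme-binding protein Pgrmc2 (0.35, adjusted p = 0.0053) and the heme oxygenase Hmox1 (0.68, adjusted p = 0.00407) were also higher.

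Por, the reductase that feeds electrons to both Cyp51 and Sqle, was at 87 and 79.9 CPM in Mock and at 99.1 and 90 CPM in FeSO4. This difference did not pass the test (0.18 ± 0.08, SE, edgeR adjusted p = 0.125). Neither did those of Cyb5r3 (0.09), the Cyp51 partner Pgrmc1 (0.17), Sec14l2 (-0.11), Ubxn8 (0.20) and March6 (0.10), the ubiquitin ligase that removes squalene epoxidase.

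Among 11 genes of sterol sensing and uptake reported here, 4 were higher and 1 was lower in FeSO4, with a median log2 fold change of 0.26. Insig1 (0.97), Srebf1 (0.82) and Stard4 (0.63) had the smallest p. Srebf2, which encodes SREBP-2, was at 482 and 479 CPM in Mock and at 629 and 604 CPM in FeSO4 (0.36 ± 0.06, SE, edgeR adjusted p = 0.00061). Scap, which escorts SREBP to the Golgi, was the lower gene, at 129 and 122 CPM in Mock and at 106 and 97.2 CPM in FeSO4 (-0.30 ± 0.07, adjusted p = 0.00796). The call of Scap was lost without FeSO4 replicate 2, where the list had 0 lower genes.

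Of 12 other enzymes of lipid metabolism that use iron or heme with oxygen, 7 were tested and 5 of those were higher. Fads2 (2.66), Scd1 (1.86), Scd2 (1.73) and Fads1 (0.67) are fatty acid desaturases, and Sc5d was the fifth. Fads3 (1.13 ± 0.58, adjusted p = 0.2) and Cyp39a1 (-0.65 ± 0.27, adjusted p = 0.102) did not pass in edgeR's test. The sterol hydroxylase Ch25h and the ether lipid oxygenase Agmo had 0 counts in every library, and a count of 0 leaves room for up to 0.0876 CPM in the library with fewest reads, and Cyp27a1 and Cyp7b1 had at most 1 count.

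Genes of sterol export and esterification went in both directions. Of 7 tested, Abcg1 (0.53, adjusted p = 0.000846) and Soat2 (0.88, adjusted p = 0.0102) were higher. Abca1 (-0.69, adjusted p = 0.0254) and Apoe (-0.74, adjusted p = 0.0244) were lower, and the median was -0.11. Without Mock replicate 1, 1 gene was higher and 0 were lower, and without Mock replicate 2 or FeSO4 replicate 1, 1 was lower.

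Among genes other than the 7, those whose pattern over the 4 libraries was most like the mean of the 7 were found by the distance between centered log2 CPM values over 8515 genes that averaged 10 CPM or more. The 6 nearest were Cldn25 (the older symbol of Cldnd1, distance 0.0545), Rnase4 (0.0731), AW112010 (0.0866), Acsl3 (0.103), Pdpn (0.125) and Insig1 (0.142), the last also a gene of the sterol sensing list. The 7 genes themselves lay 0.0524 to 0.153 from their own mean. Cldn25 was at 94.3 and 102 CPM in Mock and at 197 and 198 CPM in FeSO4. Acsl3, an enzyme that activates fatty acids, was at 24.6 and 26.7 CPM in Mock and at 53.9 and 56.4 CPM in FeSO4. By Pearson correlation, which ignores the size of the change, 303 genes had r over 0.99 across these 4 points and 0 of the 6 nearest were the same, so likeness of shape alone singled out no gene.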

How the data were processed

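RNA from 2 FeSO4 and 2 Mock iTreg cultures was sequenced. The authors deposited raw read counts per Ensembl gene, not normalized. The labels list Trim Galore 0.6.7, STAR 2.7.9a, featureCounts and mm10 (GRCm38), while the methods name STAR and mm9. The strand setting was not given in the sources used here. Of 47729 IDs, 14930 had no symbol in GENCODE M1 and held 0.755% of counts. The 5 rows of unassigned reads (15.9 to 17.3% of a library) were left out. Their names, such as no_feature and alignment_not_unique, are those of HTSeq-count and not of featureCounts. Which program counted the reads was therefore not settled here. Reads with more than 1 alignment (4.27 to 4.62%) were not counted, so near-identical copies can be under-counted.

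The test was edgeR 4.0.16 under R 4.3.3 (filterByExpr by group, TMM, quasi-likelihood F test, Benjamini-Hochberg over 13732 genes, calls at an adjusted p under 0.05). The SE is the log2 fold change divided by the square root of F. Within-number ratios used log2 CPM with a prior count of 2. Replicates differed by more than sampling noise (chi-square per degree of freedom 11.3 in Mock and 9.02 in FeSO4). The labels do not say that the libraries came from separate mice, though the study's methods describe pairs from independent experiments. The p-values test the group difference against the variation between these libraries. With 2 libraries per group, that variation was estimated with information shared across genes. On simulated data for this comparison with 13447 genes, 81.6% of 98 genes changed by 1 on the log2 scale were called. Of 96 genes changed by 0.5, 56.2% were called, and 10 unchanged genes were called as well. The simulation changed a far smaller share of genes than the 19.5% called in the data, so these rates hold for its setting only. Counting errors cover counting only, since no molecular identifiers are mentioned.

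The 7 genes, the lists and the naming rule were chosen with earlier results of these data known. Named were all 7 genes, the pathway and electron donor lists, up to 4 genes of smallest p in each other list, and the 6 genes of nearest profile. Scap, Sc5d (in its second list), Fads3, Cyp39a1, Ctsb and the genes near 0 counts were named beyond the rule, after their values were seen. Alternatives were DESeq2 1.42.0, limma-voom (limma 3.58.1), other scalings, other filters on low counts, a block on replicate number, and each library left out in turn. Some genes of the lists, and 1 further list, are not reported here. Protein sequences were not used here.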

Additional observations from a re-analysis of the deposited data

How the results depend on the processing

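The log2 fold changes of the 7 sterol genes stayed positive with an adjusted p under 0.05 in all 84 combinations of gene and alternative (12 alternatives), from 0.84 to 1.25, with a largest adjusted p of 1.76e-05 (edgeR, DESeq2 or limma-voom). Over all genes, library size only gave 939 higher genes in place of 1455. With 1 library left out, 927 to 1159 genes were higher and 799 to 1030 lower, fewest without FeSO4 replicate 1, where an arm of 1 library is assumed to vary like the other arm. For sterol sensing, library size only gave 2 lower genes, and leaving out libraries gave 0 to 1. For sterol export, leaving out libraries gave 1 to 2 higher and 0 to 2 lower genes. The cause was not tested.

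The labels do not say that same-numbered libraries belong together. Their deviations from the group means had a correlation of 0.0293 over all tested genes and of 0.22 over the 8522 genes that averaged 10 CPM or more, and the study's methods describe pairs from independent experiments. With the replicate number as a block, 1743 genes were higher and 1467 lower, and the fold changes of the 7 genes moved by at most 0.00095 on the log2 scale. The block added Ebp to the higher late-step genes (5 of 5 called), and library size only left 3. The order of levels per length changed with the length used, an alternative chosen after seeing the data.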
